A study of Mus musculus with 8 samples.

Results

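The endocardial cushions are the swellings from which the valves and septa of the heart form. In the cushions of the atrioventricular canal and outflow tract, BMP and TGF-beta signals act on endocardial cells, Notch signalling primes them, and transcription factors of the Snail, Twist and Msx families accompany their change into migrating mesenchyme. The mesenchyme then carries PDGF receptors, the mesenchymal cadherin Cdh11 and a hyaluronan-rich matrix. A set of 10 genes of this transition and of early mesenchyme are described here, taken from the table by symbol: the transcription factors Twist1, Snai1, Snai2, Msx1, Msx2 and Prrx1, the receptors Pdgfra and Pdgfrb, the ligand Tgfb2 and the cadherin Cdh11. All 10 were found on primary chromosomes, once each, among 52778 rows of the deposited table, and all 10 passed the filter on low values (a mean of at least 1 TPM over the 8 libraries), as 15541 rows did.

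RNA was sequenced from mouse embryos at embryonic day 11.5. The series text gives the tissue as ventricles, and the sample titles read heart. In 4 libraries, called cKO, both alleles of Rps19bp1 were floxed (Rps19bp1 fl/fl) and Xmlc2-Cre, carried in 1 copy per the series text (+/−), drives recombination in cardiomyocytes. The other 4 libraries are labelled control, and the labels do not say which floxed or Cre alleles these embryos carried. The genotype field reads C57BL/6 WT for all 8, against the titles and the treatment field. The labels name no drug or other agent. The comparison asks how RNA levels in the tissue differ when cardiomyocytes lose Rps19bp1, whose nucleolar product is known as a partner of ribosomal protein S19. Most of the genes described here are best known from mesenchymal, endocardial and epicardium-derived cells, in which this Cre is not expected to act. Which cells held their RNA here, cardiomyocytes among them, was not tested. In pieces of whole tissue, a change in the number of cells of a type and a change in RNA per cell cannot be told apart. The labels call the libraries biological replicates but do not say whether each came from 1 embryo or from a pool, and p-values measure the spread between these libraries.

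Values are TPM, the deposited abundance per length of transcript, scaled to the same total in each library. TPM holds no read depth, so counting error is unknown and the errors given are those between libraries. Log2 changes are fitted differences of log2(TPM + 1), cKO minus control. Rps19bp1 lay between 34.7 and 44.2 TPM in control and between 11.8 and 19.2 TPM in cKO. Because one label names cultured cortical neurons as the source of RNA, markers were read first. The summed level of 14 cardiomyocyte genes lay between 51770 and 57300 TPM in control and between 52410 and 54940 TPM in cKO, while 8 of 12 neuronal genes had a mean below 1 TPM and Neurod6 was at 0 in all libraries. Camk2a (102.9 to 125 TPM) and Gap43 (27.4 to 43.5 TPM) of the same list were abundant. Of 10 genes of pharyngeal arch and limb mesenchyme, which surround the heart and also use several of these factors, 10 had a mean below 1 TPM. The neural crest gene Sox10 was near 0 (0.154 to 0.431 TPM).

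In control, Cdh11 was the most abundant of the 10 genes, with a mean of 94.4 TPM, and was above all others in each library. Twist1 (63.9 TPM), Tgfb2 (31.3 TPM), Pdgfra (19.9 TPM) and Pdgfrb (19.2 TPM) followed, and the ranges of each neighbouring pair in that order overlapped. Snai1 (10.4 TPM), Msx1 (9.36 TPM), Msx2 (9.24 TPM) and Snai2 (7.75 TPM) formed a lower tier whose neighbouring ranges overlapped too, and Prrx1 (3.76 TPM) lay below them. In cKO the first 6 places were the same, Tgfb2 lay above Pdgfra in all libraries, and the mean of Snai2 (10.4 TPM) stood above those of Msx1 (10.2 TPM) and Msx2 (8.33 TPM), with overlapping ranges.

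**Figure D1:**
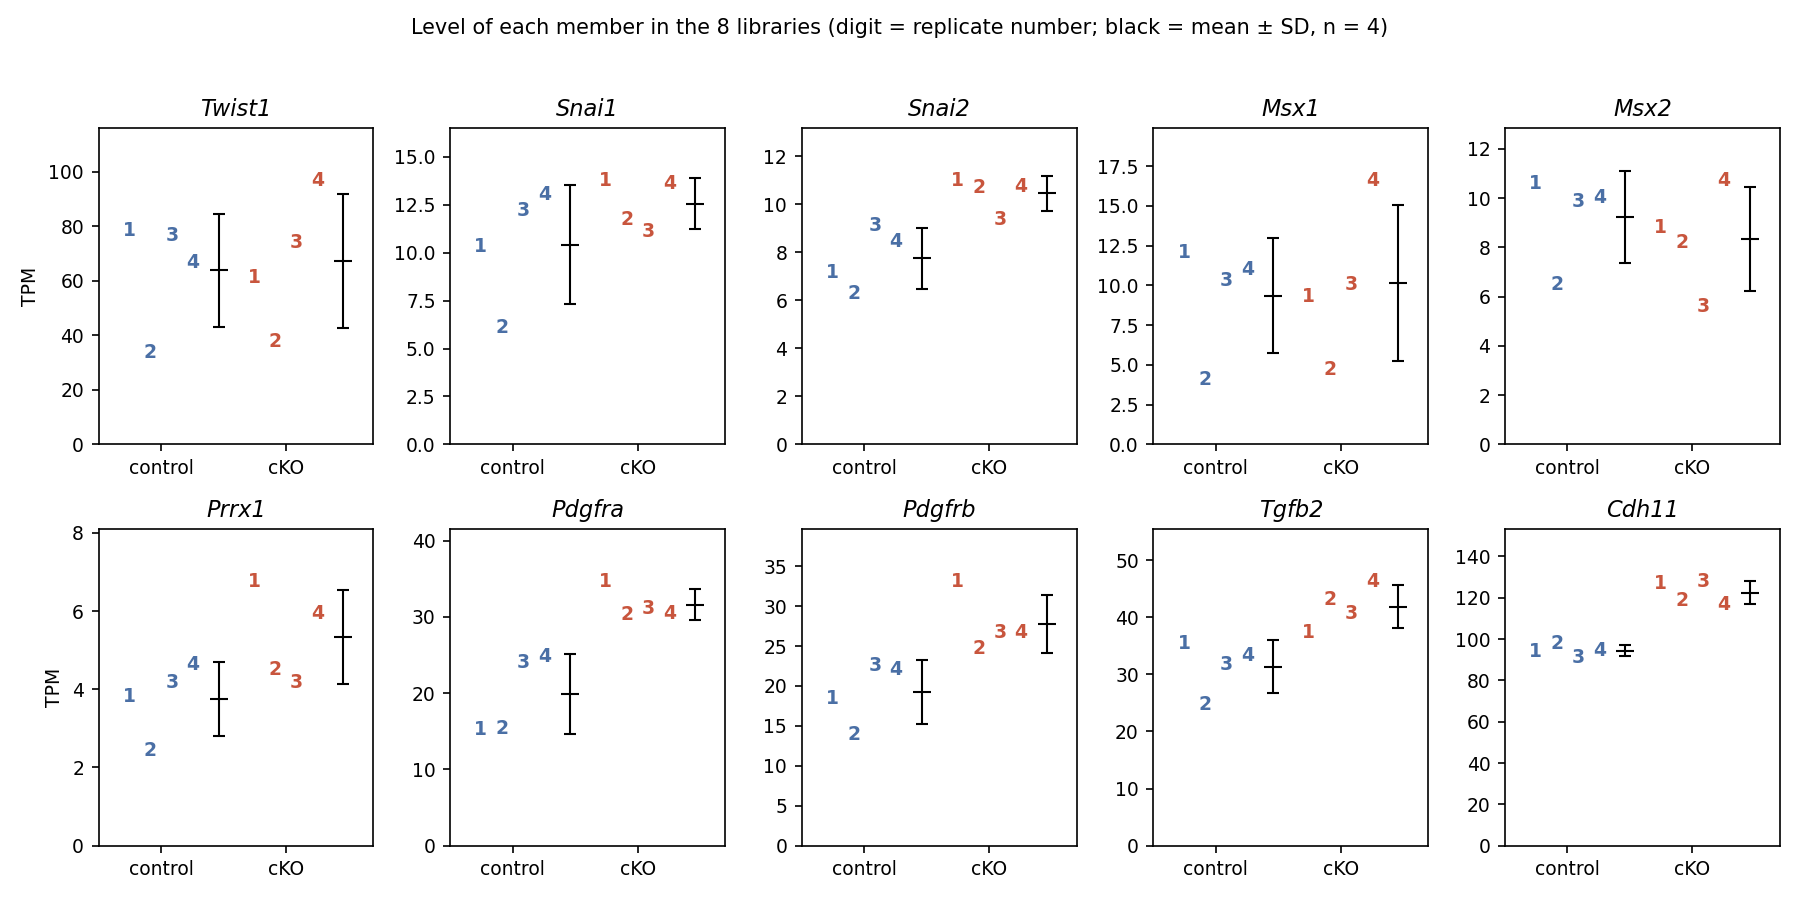
TPM of the 10 genes in each library, 1 panel per gene with its own axis from 0. Digits are the replicate numbers of the 4 control (blue) and 4 cKO (red) libraries, and black marks are the mean ± SD. Cdh11, Pdgfra, Pdgfrb, Tgfb2 and Snai2 separate the groups, while in Twist1 and Msx1 the library numbered 2 is the lowest of both groups.

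In all, 3 members rose in cKO and none fell, where called means a limma adjusted p under 0.05 over all tested rows. These were Cdh11, Pdgfra and Tgfb2, that is a cadherin, a receptor and a ligand, with fitted log2 changes of 0.37 to 0.68. Over all tested rows 2.16% were called higher and 4.23% lower. Without both libraries numbered 2, which stand apart for several members, 1 of the 3 calls was left, Cdh11. In that fit 0.598% of all tested rows were called higher. Pdgfra and Tgfb2 had log2 changes of 0.59 and 0.29 there. At an unadjusted p under 0.05, limma placed 6 members higher and 0 lower, where 8.36% of all tested rows were higher and 15.4% lower. In 5 members every cKO library lay above every control library, which held for 5.33% of all tested rows. The median log2 change of the 10 genes was 0.38, against -0.02 for all tested rows.

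Cdh11 (chr8:102632095-102785493, minus strand, GRCm38) encodes the cadherin by which mesenchymal cells adhere to each other. It stood at 94.2, 97.7, 91.1 and 94.5 TPM in control libraries 1 to 4 and at 127, 119, 128 and 117 TPM in cKO libraries 1 to 4. The groups were wide apart relative to their spread, and their coefficients of variation were the smallest of the 10 genes (94.4 ± 2.69 TPM in control and 122 ± 5.66 TPM in cKO, SD, n = 4). The ratio of the means was 1.30, and the log2 change was 0.37 (SE 0.0469, limma adjusted p = 0.00297). The call held in all 8 fits that left out 1 library, with log2 changes of 0.35 to 0.40 and adjusted p from 0.00453 to 0.0150.

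Pdgfra (chr5:75151322-75198206, plus strand) encodes the receptor tyrosine kinase for PDGF ligands that marks much of the early mesenchyme. Control libraries 1 to 4 held 15.3, 15.4, 24.0 and 24.8 TPM, and cKO libraries 1 to 4 held 34.6, 30.3, 31.0 and 30.4 TPM. The control libraries fell into a lower and a higher pair, and all cKO libraries lay above both pairs. The means were 19.9 ± 5.26 and 31.6 ± 2.01 TPM (SD, n = 4), a ratio of 1.59, and the log2 change was 0.68 (SE 0.152, limma adjusted p = 0.0322). Although this was the largest fitted change of the 10 genes, it was less secure than that of Cdh11. Leaving out control replicates 1 or 2 raised the adjusted p to 0.0742 or 0.0716, and leaving out cKO replicates 1, 2 or 3 raised it to 0.0834, 0.0555 or 0.0721.

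Pdgfrb (chr18:61045127-61085067, plus strand), the second PDGF receptor and also a gene of vessel-covering mural cells, had a profile close to that of Pdgfra but did not pass the threshold. It stood at 18.5, 13.9, 22.5 and 22.1 TPM in control and at 33.0, 24.7, 26.7 and 26.7 TPM in cKO, so the groups did not overlap. The log2 change was 0.52 (SE 0.142, 95% confidence interval 0.21 to 0.84, limma adjusted p = 0.0570). It crossed the threshold in 2 of 18 alternatives, with the filter set at 5 TPM (adjusted p = 0.0468) and with median-ratio scaling (0.0491). It passed in 0 of the 8 fits without 1 library, with adjusted p from 0.0597 to 0.134. The ligands of the 2 receptors were not called. Pdgfa had a log2 change of -0.01 on TPM as deposited, turning to 0.03 after quantile normalization and 0.02 under both rescalings, and Pdgfb (0.13), Pdgfc (0.22) and Pdgfd (0.13) had limma adjusted p between 0.235 and 0.703.

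Tgfb2 (chr1:186622787-186709697, minus strand) encodes the TGF-beta ligand known for its role in cushion transition. Its levels were 35.4, 24.7, 31.7 and 33.3 TPM in control and 37.2, 43.1, 40.7 and 46.2 TPM in cKO. The groups did not overlap, though the lowest cKO library was only 1.79 TPM above the highest control library. The means were 31.3 ± 4.65 and 41.8 ± 3.77 TPM (SD, n = 4), and the log2 change was 0.41 (SE 0.106, limma adjusted p = 0.0470). This call sat at the threshold. In each of the 8 fits without 1 library the adjusted p was above it, from 0.0556 without control replicate 1 to 0.0994 without control replicate 3, with log2 changes of 0.31 to 0.48.

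**Figure D2:**
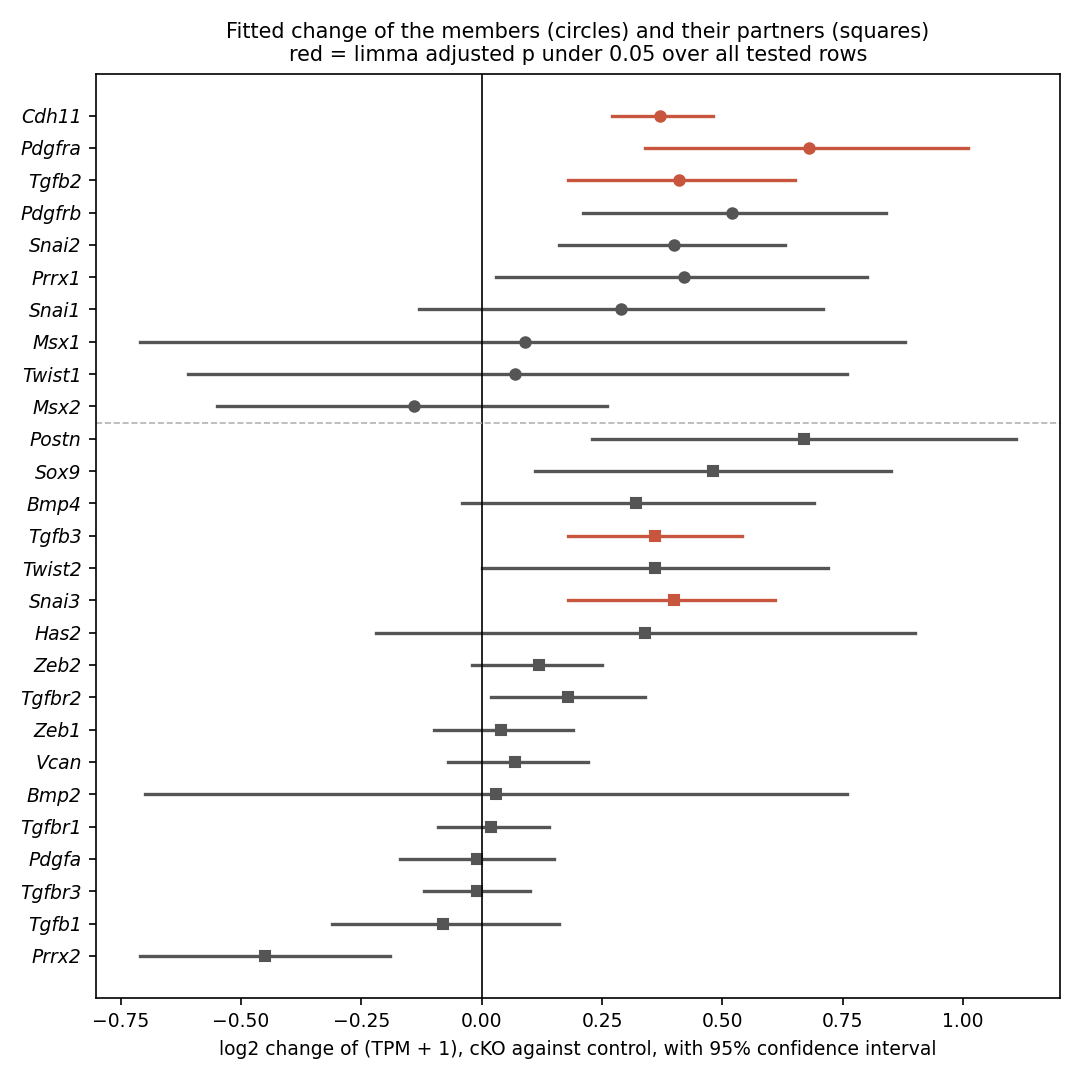
Fitted log2 change of TPM + 1 in cKO against control with its 95% confidence interval, for the 10 members (circles, above the dashed line) and 17 partner genes (squares). Red marks a limma adjusted p under 0.05 over all tested rows, reached by Cdh11, Pdgfra, Tgfb2, Tgfb3 and Snai3, and the intervals of Msx1, Twist1 and Bmp2 are the widest.

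The Snail genes encode zinc-finger repressors of epithelial and endothelial adhesion genes. Snai2 (chr16:14705852-14709395, plus strand) stood at 7.15, 6.28, 9.11 and 8.45 TPM in control and at 10.98, 10.7, 9.36 and 10.8 TPM in cKO. The groups were separate by a narrow margin. The log2 change of Snai2 was 0.40 (SE 0.105, 95% confidence interval 0.16 to 0.63, limma adjusted p = 0.0521), just outside the threshold. It fell inside under 5 of 9 alternatives in processing (adjusted p from 0.0406 to 0.0493) and without control replicate 3 (0.0468).

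Snai1 (chr2:167538195-167542814, plus strand) is the family member most tied to the transition itself. It lay at 10.3, 6.09, 12.2 and 13.0 TPM in control and at 13.7, 11.7, 11.1 and 13.6 TPM in cKO. The groups overlapped, with control replicate 2 well below the other libraries. The log2 change was 0.29 (SE 0.187, 95% confidence interval -0.13 to 0.71, limma adjusted p = 0.390), and it was 0.08 without control replicate 2. The third Snail gene, Snai3, was called higher (log2 change 0.40, limma adjusted p = 0.0401), from 4.42 ± 0.595 TPM in control to 6.12 ± 0.550 TPM in cKO (SD, n = 4). That call held in 1 of the 8 fits without 1 library, the one without control replicate 1, and the adjusted p was up to 0.105 (without control replicate 3).

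Prrx1 (chr1:163245119-163315145, minus strand) and its paralog Prrx2 encode paired-related homeodomain factors of mesenchyme. Prrx1 was the rarest of the 10 genes, at 3.82, 2.43, 4.18 and 4.62 TPM in control and 6.74, 4.52, 4.16 and 5.93 TPM in cKO. The groups overlapped, and the log2 change of 0.42 (SE 0.174, 95% confidence interval 0.03 to 0.80) had a limma adjusted p of 0.180. Prrx2 was far more abundant and lay the other way, at 120, 126, 116 and 105 TPM in control and 68.5, 76.7, 95.8 and 103 TPM in cKO. Every cKO library was below every control library, as in 10.3% of all tested rows. The log2 change of Prrx2 was -0.45 (SE 0.118, 95% confidence interval -0.71 to -0.19, limma adjusted p = 0.0515). Without cKO replicate 4 it was -0.54 (adjusted p = 0.0222). That was the only 1 of the 8 fits without 1 library to pass, and the adjusted p was up to 0.123.

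Twist1 (chr12:33957671-33959831, plus strand) encodes the basic helix-loop-helix factor of proliferating cushion mesenchyme. It stood at 78.4, 33.6, 76.7 and 66.8 TPM in control and at 61.1, 37.9, 73.9 and 96.7 TPM in cKO. The groups overlapped almost completely, and library 2 was the lowest of each group. The log2 change was 0.07 (SE 0.308, 95% confidence interval -0.61 to 0.76, limma adjusted p = 0.917). Its sign was not fixed: it was -0.21 without control replicate 2 and -0.12 without cKO replicate 4.

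Msx1 (chr5:37820491-37824585, minus strand) and Msx2 (chr13:53466881-53472780, minus strand) encode homeodomain factors that act downstream of BMP signals in the atrioventricular cushions. Msx1 had the same shape as Twist1, with 12.1, 4.06, 10.3 and 10.98 TPM in control and 9.27, 4.73, 10.04 and 16.6 TPM in cKO. Library 2 again was the lowest of each group. The log2 change of Msx1 was 0.09 (SE 0.358, 95% confidence interval -0.71 to 0.88, limma adjusted p = 0.914), and it was -0.23 without control replicate 2 and -0.17 without cKO replicate 4. Msx2 lay at 10.6, 6.49, 9.86 and 10.02 TPM in control and at 8.82, 8.19, 5.601 and 10.7 TPM in cKO. Here control replicate 2 and cKO replicate 3 were the low libraries, and the groups overlapped. The log2 change of Msx2 was -0.14 (SE 0.182, 95% confidence interval -0.55 to 0.26, limma adjusted p = 0.683), and 0.01 without cKO replicate 3. Msx1 overlaps Msx1os (0.293 to 2.28 TPM) on the opposite strand, and the use of strand in counting is not given in the sources used here.

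The members spread over the libraries in 2 ways. Control replicate 2 was the lowest control library in 8 of the 10 genes, the exceptions being Pdgfra and Cdh11, and cKO replicate 2 was the lowest cKO library in 4. Twist1, Msx1 and Pdgfrb had library 2 lowest in both groups. In Msx1 control replicate 2 stood at 36.5% of the mean of the other control libraries and cKO replicate 2 at 39.5% of the mean of the other cKO libraries. For Twist1 these values were 45.5% and 49.1%.

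Of 8 atrial and atrioventricular canal genes on the marker list, 5 had library 2 lowest in both groups, Bmp2, Tbx2, Tbx3, Nr2f1 and Nr2f2. Rspo3, Stard10 and Sln did not: Rspo3 was lowest in cKO replicate 3 and Stard10 was highest of the controls in control replicate 2. The pattern was not particular to that list, as Tgfb1, Tgfb3, Pdgfb, Sox9, Postn, Nfatc1 and Notch1 had it too. Zeb1, Vcan and Has2 did not, and the share of all tested rows with this pattern was not counted. Bmp2, the myocardial ligand that starts cushion formation in the canal, stood at 34.4% and 52.0% in the libraries numbered 2, relative to the other libraries of the group. The T-box genes Tbx3 (29.4% and 45.6%) and Tbx2 (60.7% and 67.0%), which mark the canal myocardium and were singled out after their values were seen, were also lowest in library 2 of both groups. None of Bmp2, Tbx2 and Tbx3 was called, with limma adjusted p between 0.917 and 0.973. The Bmp2 log2 change was 0.03, and -0.31 without control replicate 2, while that of Tbx3 was 0.08, and -0.28 without the same library. The Tbx2 value of -0.02 turned to 0.00 and 0.01 under the 2 rescalings. The summed level of the 5 other genes of the list was 46.9 TPM in control replicate 2 and 52.5 to 58.1 TPM in the other controls. In cKO replicate 2 it was 49.5 TPM, above cKO replicate 3 (43.3 TPM) and below the others (50.9 and 59.6 TPM), so library 2 was not the lowest cKO library there. The part of canal tissue in the levels of Twist1 and Msx1 was not tested.

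**Figure D3:**
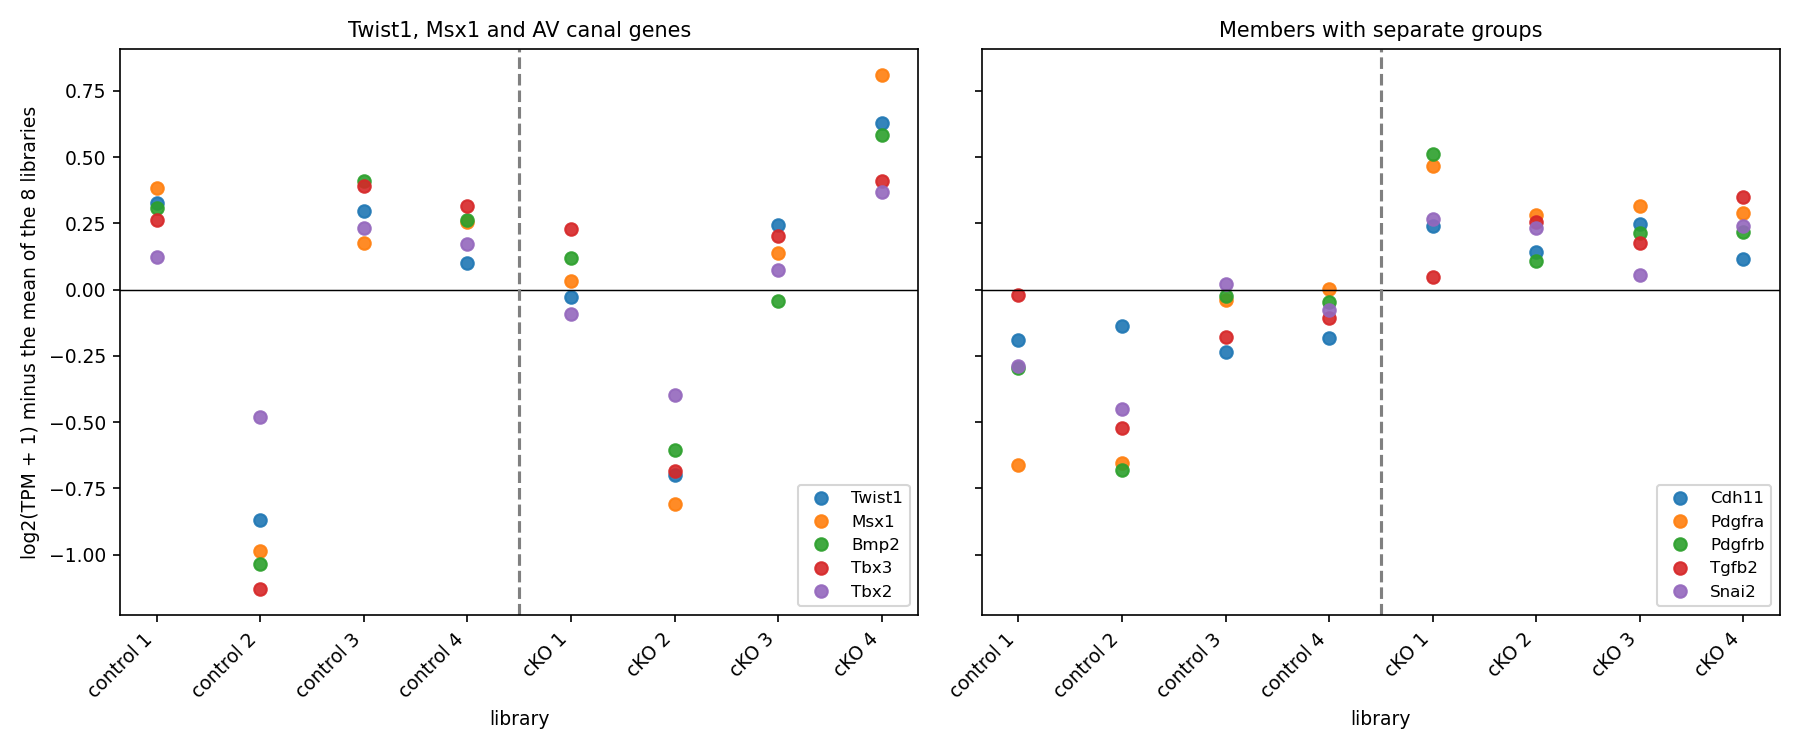
Each point is log2(TPM + 1) of a gene in a library minus the mean of that gene over the 8 libraries, with control libraries left of the dashed line and cKO libraries right of it. In Twist1, Msx1, Bmp2, Tbx3 and Tbx2 (left panel) control 2 and cKO 2 are low, and in Cdh11, Pdgfra, Pdgfrb, Tgfb2 and Snai2 (right panel) the cKO libraries are above the control libraries.

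The promoters of genes from each pattern are shown to set beside these profiles: Twist1 and Msx1, which followed the libraries numbered 2, and Pdgfra and Tgfb2, which were called higher in cKO. RefSeq promoter sequences (GRCm38.p6) were matched by symbol for 7 of the 10 genes. The 250 bases before the start site are printed 5′ to 3′ on the gene's strand, with every match to CANNTG, the E-box bound by Snail and Twist proteins among others, in capitals. The motif reads the same on both strands. The windows are chr12:33957421-33957670 (plus) for Twist1, chr5:37824586-37824835 (minus) for Msx1, chr5:75152001-75152250 (plus) for Pdgfra and chr1:186705990-186706239 (minus) for Tgfb2. The start sites used for Pdgfra and Tgfb2 lie 929 and 3708 bases inside the table's rows.
Twist1: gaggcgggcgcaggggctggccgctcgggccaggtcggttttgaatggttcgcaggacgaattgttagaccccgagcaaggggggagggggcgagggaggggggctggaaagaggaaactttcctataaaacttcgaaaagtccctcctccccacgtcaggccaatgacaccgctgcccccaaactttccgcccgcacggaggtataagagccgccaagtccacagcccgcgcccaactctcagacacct
Msx1: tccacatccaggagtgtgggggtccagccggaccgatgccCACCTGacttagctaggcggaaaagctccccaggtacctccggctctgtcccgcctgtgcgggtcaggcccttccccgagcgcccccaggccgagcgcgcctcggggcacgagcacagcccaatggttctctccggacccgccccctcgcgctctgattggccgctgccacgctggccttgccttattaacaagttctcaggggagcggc
Pdgfra: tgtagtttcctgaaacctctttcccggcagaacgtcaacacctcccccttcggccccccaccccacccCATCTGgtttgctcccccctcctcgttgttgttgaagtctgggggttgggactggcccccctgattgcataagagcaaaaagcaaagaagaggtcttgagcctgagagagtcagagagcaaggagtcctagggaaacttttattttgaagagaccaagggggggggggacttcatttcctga
Tgfb2: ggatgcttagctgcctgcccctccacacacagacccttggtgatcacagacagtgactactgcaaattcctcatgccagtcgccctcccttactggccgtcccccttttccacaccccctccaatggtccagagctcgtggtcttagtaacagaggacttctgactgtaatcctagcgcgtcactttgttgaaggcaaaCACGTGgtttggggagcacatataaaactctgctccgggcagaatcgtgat

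The Twist1 window held 0 matches to CANNTG, and those of Msx1, Pdgfra and Tgfb2 held 1 each. The match in Msx1 read CACCTG, 210 bases before the start site, and those in Pdgfra and Tgfb2 read CATCTG and CACGTG. Of 32851 promoter windows of the same length, 66.2% held at least 1 match, with a mean of 1.16. CAGGTG or its other strand CACCTG, the form of the E-box preferred by Snail proteins and a subset of CANNTG, was found in Msx1 and Snai1 alone among the 7 and in 17.2% of all windows. The homeodomain core TAATTG or CAATTA was in 0 of the 7 and in 7.17% of all windows.

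Ratios between paralogs were compared because a rescaling of a library leaves them unchanged. Each is a share of the summed TPM of its paralog group, tested over all 70 assignments of the 8 libraries and adjusted over the 6 shares, and the smallest p this can give is 0.0286. Snai2 made up 43.5% ± 5.08 of Snai1 plus Snai2 in control and 45.5% ± 1.61 in cKO (SD, n = 4, exact permutation p = 0.486). Msx2 made up 51.2% ± 6.94 and 46.8% ± 12.4 of the Msx pair (exact permutation p = 0.6), Pdgfrb 49.4% ± 3.57 and 46.7% ± 1.64 of the PDGF receptors (0.200), and Twist1 98.3% ± 0.751 and 97.4% ± 1.40 of Twist1 plus Twist2 (0.371). The difference of each of these 4 shares was less than the larger SD of both groups. Both PDGF receptors were thus present in near equal amounts in each group.

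The shares of Tgfb2 and Prrx1 differed more. Tgfb2 made up 40.5% ± 2.82 of Tgfb1, Tgfb2 and Tgfb3 in control and 46.8% ± 3.99 in cKO (SD, n = 4), with 1 control library, replicate 1 at 44.6%, above 2 cKO libraries (exact permutation p = 0.0857, adjusted 0.257). Prrx1 made up 3.17% ± 0.964 of the Prrx pair in control and 6.03% ± 2.05 in cKO (exact permutation p = 0.0571, adjusted 0.257), and the highest control library (4.20%) was just above the lowest cKO library (4.16%). As a log2 ratio of Prrx1 to Prrx2 with a pseudocount of 1 the difference was 0.87 and the groups were separate (exact permutation p = 0.0286, the smallest possible, and 0.171 adjusted over the 6).

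**Figure D4:**
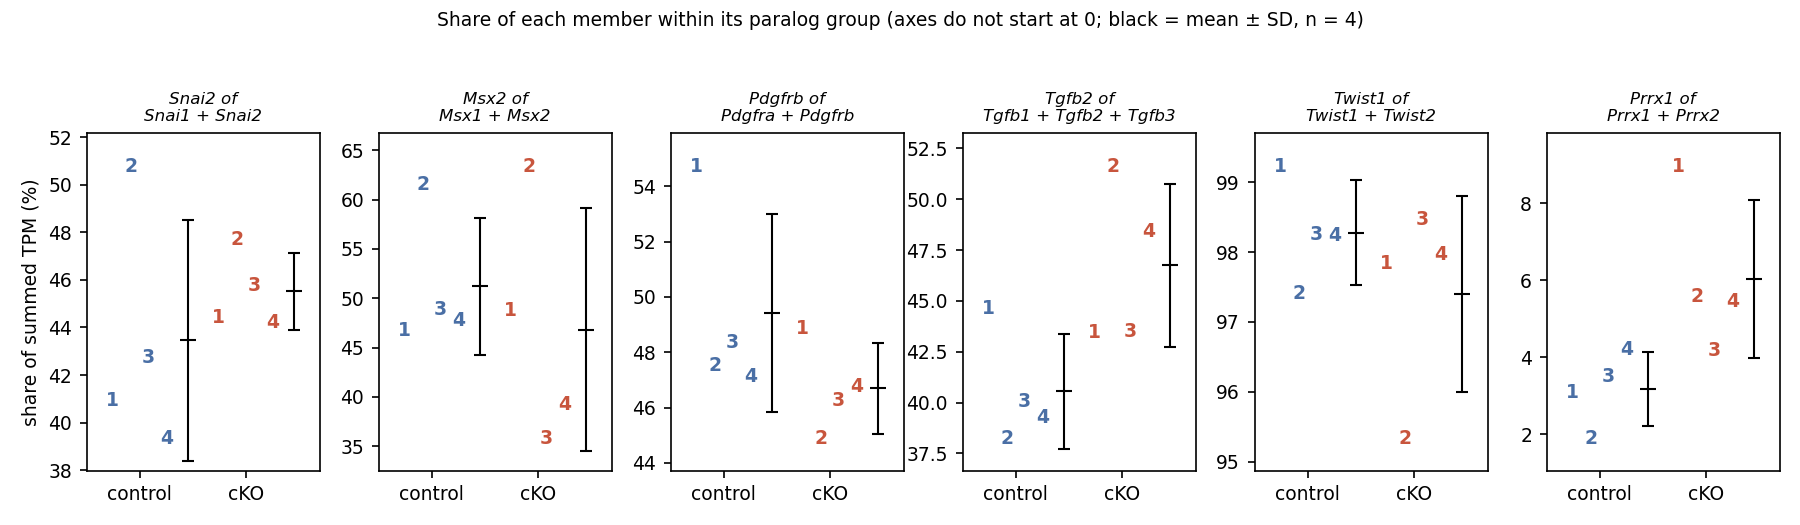
Share of summed TPM that each member takes within its paralog group, in percent, by library (digits are replicate numbers, black marks the mean ± SD, axes do not start at 0). The Tgfb2 share (40.5% in control, 46.8% in cKO) and the Prrx1 share (3.17% and 6.03%) are higher on average in cKO, with overlapping libraries.

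Among the other genes of the pathway, 76 genes on 4 lists, 75 were tested, 8 were called higher and 3 lower, beside 2.16% and 4.23% of all rows. Within TGF-beta and BMP signalling, 2 of 20 genes rose and 1 fell. Tgfb3, the ligand related to Tgfb2, rose from 12.2 ± 1.15 to 15.9 ± 1.30 TPM (SD, n = 4, limma log2 change 0.36, adjusted p = 0.0320), and Ltbp1, which binds latent TGF-beta in the matrix, had a log2 change of 0.24 (0.0328). Bmp5 fell from 21.0 ± 1.39 to 16.2 ± 0.928 TPM (limma log2 change -0.35, adjusted p = 0.0159). Tgfb1 (-0.08), the receptors Tgfbr1 (0.02), Tgfbr2 (0.18) and Tgfbr3 (-0.01) and the ligand Bmp4 (0.32) were not called. Of these, Tgfbr3 turned to 0.04 after quantile normalization, 0.01 with median-ratio scaling and 0.02 when rescaled without mitochondrial and globin rows.

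Of 14 genes of PDGF, Notch and ErbB signalling, limma called 0 higher and 1 lower, with 3 and 2 at an unadjusted p under 0.05 (8.36% and 15.4% of all tested rows). The called gene was Erbb2, the co-receptor for neuregulin in cardiomyocytes (66.6 ± 1.98 to 55.1 ± 2.46 TPM, SD, n = 4, limma log2 change -0.27, adjusted p = 0.0129). Its row overlaps Mien1 (40.6 to 66.4 TPM) on the opposite strand, so its reads are less certain. Notch1, the endocardial receptor, was at 0.23 on the log2 scale (limma adjusted p = 0.199), as was Nfatc1, a factor of valve endocardium (0.153).

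Of 21 tested transcription factors, Snai3 alone was called, and 4 were higher and 1 lower at an unadjusted p under 0.05, again beside 8.36% and 15.4% of all tested rows. Sox9, which maintains cushion mesenchyme, stood at 14.5 ± 3.30 TPM in control and 20.5 ± 3.33 TPM in cKO (SD, n = 4, limma log2 change 0.48, adjusted p = 0.116), with library 2 the lowest of both groups. The zinc-finger repressors Zeb1 (0.04) and Zeb2 (0.12) had limma adjusted p of 0.728 and 0.269, and Twist2 (1.02 TPM in control, 1.59 TPM in cKO) one of 0.205.

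Among the pathway lists, that of matrix and adhesion held the most calls. Of its 20 genes 5 were higher, Fbln2, Fn1, Mmp2, Col1a2 and Col3a1, and 1 lower, Fbln1. Over all tested rows 2.16% were called higher and 4.23% lower. At an unadjusted p under 0.05, limma placed 9 of the 20 higher and 2 lower (8.36% and 15.4% of all tested rows). Fbln2, a fibulin of cushion mesenchyme, rose from 99.7 ± 11.2 to 137 ± 12.6 TPM (SD, n = 4, limma log2 change 0.46, adjusted p = 0.0195). The collagens Col1a2 and Col3a1 had log2 changes of 0.47 (limma adjusted p = 0.0121) and 0.40 (0.00459). Mmp2, a secreted metalloprotease, had a log2 change of 0.49 (0.0493), and Fn1, fibronectin, of 0.39 (0.0355). The related Fbln1 fell from 149 ± 4.39 to 123 ± 5.81 TPM (limma log2 change -0.28, adjusted p = 0.0103). Postn, a matrix protein of maturing cushion mesenchyme, stood at 97.6 ± 27.5 and 153 ± 28.7 TPM with separate groups (log2 change 0.67, limma adjusted p = 0.0744). It passed in 1 of the 8 fits without 1 library, that without control replicate 4 (0.0486), and the adjusted p was up to 0.166. Has2, the hyaluronan synthase of the cardiac jelly (0.34, limma adjusted p = 0.461), and its partner proteoglycan Vcan (0.07, 0.533) were not called.

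When 1 library at a time was left out, the calls of Bmp5, Erbb2, Fbln1, Col1a2 and Col3a1 held in all 8 fits and that of Fbln2 in 7 (adjusted p = 0.0505 without control replicate 1). Without both libraries numbered 2, 1 of the 8 higher calls (Col3a1, adjusted p = 0.0339) and 0 of the 3 lower calls were left. Over all 15541 tested rows, higher calls went from 336 to 93 in that fit and lower calls from 658 to 129. The lower genes kept changes of about the same size there, -0.36 for Bmp5 (adjusted p = 0.0667), -0.30 for Erbb2 (0.0523) and -0.29 for Fbln1 (0.0578), as did Col1a2 at 0.46 (0.0666). Tgfb3 kept its call in 3 of 8 (up to 0.0808, without cKO replicate 1), and Ltbp1 (0.0844, without control replicate 1), Fn1 (0.0846, without cKO replicate 3) and Mmp2 (0.122, without control replicate 1) in 1 each.

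Markers of other cell types moved with the called members in part. Of 12 epicardial genes, 12 had a fitted change above 0, as had 6863 of all 15541 tested rows. Of these 12 genes 6 were called higher, beside 2.16% of all tested rows. Their summed level ran from 424 to 477 TPM in control and from 490.0 to 599 TPM in cKO. Of 12 endocardial and endothelial genes, 10 had a change above 0 and limma called 0, with 5 at an unadjusted p under 0.05, all higher (8.36% of all tested rows), and sums of 1092 to 1163 TPM and 1122 to 1274 TPM. Among 8 tested smooth muscle and pericyte genes 1 was called higher, Notch3 (0.53, limma adjusted p = 0.0282), again beside 2.16% of all tested rows. Notch3 is named here although the naming rule did not choose it. The summed level of that list was 2705 to 3129 TPM in control and 2380 to 2981 TPM in cKO. Of 10 erythroid genes 10 had a change below 0, as had 8678 of all 15541 tested rows. Limma called 0 of the 10, with 2 at an unadjusted p under 0.05, both lower (15.4% of all tested rows). Mitochondrial rows took 11.4% to 12.2% of TPM in control and 13.2% to 16.2% in cKO. Rescaled without mitochondrial and globin rows, 4 of the 10 members were called higher. The part of these cell types and RNA classes in the changes of the members was not tested.

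The rows closest to the mean profile of the 10 genes were searched over all 8 libraries, by the root mean square difference of centred log2(TPM + 1). They were Htra1 (0.0463), Axin2 (0.0480), Jam2 (0.0652), Sall3 (0.0731) and Crispld1 (0.0899). Since these rows were chosen by closeness to that profile, their shape and the direction of their change in cKO follow from the choice. Each had its lowest value in control replicate 2, as the mean profile did (-0.61 on the log2 scale). Their own log2 changes in cKO ran from 0.24 (Sall3) to 0.33 (Crispld1), and none was called (limma adjusted p between 0.141 and 0.427).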

How the data were processed

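Each of the 8 libraries has 1 column of TPM in the table the authors deposited, with replicates not pooled. The submitters' processing notes name FastQC, Trim Galore 0.6.7, HISAT2 2.2.1, StringTie 2.2.1, featureCounts and DESeq2 and the build GRCm38, with no role or order. Annotation and strand setting are not given in the sources used here. The labels disagree on library type (ribosomal RNA depletion in one text, poly(A) selection in another), and since the batch field reads 1 throughout, there was no second batch to set against it. TPM keeps no depth, so no count test was run and precision is that between libraries.

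Rows with a mean of at least 1 TPM (15541 of 52778) were log-transformed with a pseudocount of 1 and fitted on the log2 scale by limma 3.58.1 under R 4.3.3 (lmFit, eBayes with trend, group as the only term, two-sided), adjusted by Benjamini-Hochberg over all of them. Fold changes on this scale understate changes of low genes. On simulated data for the 15541 rows, 100% of 100 changes of 1.5 and 90% of 100 changes of 0.75 (log2) were recovered, and 6.86% of calls were false. The changed rows were drawn only from those above about 5 TPM. Both sizes exceed the largest fitted change of the members (0.68), so recovery of smaller changes was not tested. Paralog shares were tested by exact two-sided permutation. Alternatives were 2 other pseudocounts, 2 other filters, 3 scalings, eBayes without trend, a replicate block and leaving out each library; leaving out both libraries numbered 2 was added after seeing the data. Coordinates of the 10 members matched RefSeq GRCm38.p6.

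The members and lists were chosen with earlier results of these data known. Named genes are the members, 22 partners written down with the design, called genes of the pathway lists and the 5 rows of nearest profile. The other marker lists were as follows. Of 4 tested outflow tract genes 1 was called higher and of 14 cardiomyocyte genes 1 lower, beside 2.16% and 4.23% of all tested rows. These were Sema3c (log2 change 0.41, limma adjusted p = 0.0393) and Nkx2-5 (-0.48, 0.0453), neither chosen by the naming rule. Of the 14 cardiomyocyte genes 11 had a change below 0, as had 8678 of all 15541 tested rows. Of 10 erythroid, 7 macrophage, 4 neuronal, 2 neural crest and 7 atrial and atrioventricular canal genes 0 were called by limma. At an unadjusted p under 0.05 these lists held 2, 1, 1, 0 and 1, the macrophage gene higher and the others lower. Of all tested rows 8.36% were higher and 15.4% lower at that threshold.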

Additional observations from a re-analysis of the deposited data

Results flagged for a closer look

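In 6 of 98 groups of 4 libraries examined, 1 library stood farther from the rest than Dixon's limit allows for a group of 4, where chance gives about 1 in 20. Bmp2 was at 4.71 TPM in control replicate 2, against 13.0 to 14.5 TPM in the other controls. Tbx3 was at 2.65 TPM in the same library, against 8.60 to 9.49 TPM. Tbx2 and Tbx3 were added to the genes examined after their values were seen. The flag of Tbx3, counted in the 6, thus follows in part from that choice. The Msx2 share of the Msx pair was 61.5% there, against 46.7% to 48.8%. Pdgfra in cKO replicate 1 was at 34.6 TPM, against 30.3 to 31.0 TPM in the other cKO libraries. The Pdgfrb share of the PDGF receptors in control replicate 1 was 54.7%, against 47.1% to 48.4%. Erbb2 in control replicate 3 was at 69.5 TPM, against 65.4 to 65.8 TPM.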

How the results depend on the processing

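Of the 10 members, Cdh11 kept its call and direction under all 18 alternatives. Against 3 members called higher, the count was 1 with no filter on low values, with eBayes without trend, with the replicate block and without the libraries numbered 2 of both groups, 5 when the filter was raised to 5 TPM and under median-ratio scaling, and 1 to 3 when 1 library was left out. The count called lower was 0 throughout. Of all tested rows, 2.16% were called higher in the main fit, 0.431% with no filter, 1.53% with eBayes without trend and 1.15% with the replicate block. The share was 0.598% without the libraries numbered 2, 2.67% with the filter at 5 TPM and 2.46% under median-ratio scaling. Leaving out 1 library gave 0.984% to 2.18%. For the pathway lists, 8 genes called higher became 1 with no filter, 5 with eBayes without trend, 1 without the libraries numbered 2, and 3 to 6 when 1 library was left out (6 without cKO replicate 4, at most 5 without any other), while 3 called lower became 0 without the libraries numbered 2. More rows enter the fit with no filter (32491 against 15541) and fewer enter with the filter at 5 TPM (11661). Fewer samples enter where libraries were left out. The cause of these shifts was not tested otherwise. The share of calls higher among all rows was 33.8%, against 50.2% after quantile normalization, 47.8% with median-ratio scaling and 49.5% rescaled without mitochondrial and globin rows. The Prrx1 share did not pass, as a log2 ratio either (0.87, exact permutation p = 0.171 adjusted over the 6 shares).

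The replicate numbers did not pair the libraries: deviations of same-numbered libraries correlated at -0.011, 0.067, 0.058 and -0.089 over genes, and the replicate block moved all calls from 994 to 420 and made Sox9 pass (adjusted p = 0.0384). Signs that turned were those of uncalled genes. Leaving out 1 library gave Twist1 -0.21 to 0.32, Msx1 -0.23 to 0.37, Msx2 -0.29 to 0.01, Tgfb1 -0.14 to 0.02, Tgfbr1 -0.01 to 0.05, Tgfbr3 -0.04 to 0.02, Pdgfa -0.05 to 0.03, Pdgfb -0.01 to 0.24, Bmp2 -0.31 to 0.23, Tbx2 -0.19 to 0.11 and Tbx3 -0.28 to 0.32. Quantile normalization, median-ratio scaling and rescaling without mitochondrial and globin rows gave 0.04, 0.01 and 0.02 for Tgfbr3 and 0.03, 0.02 and 0.02 for Pdgfa, and the last 2 gave 0.00 and 0.01 for Tbx2. Without the libraries numbered 2, Bmp2 was at -0.11 and Tbx3 at -0.04.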
